A study of Mus musculus with 12 samples.

Results

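Interferon-stimulated genes are the genes that cells switch on after an interferon has bound its receptor. The set described here was named by symbol: 42 mouse genes of the interferon response, of which 36 are listed among the 12212 gene symbols of the files. All 36 passed the filter on low counts, as did 12081 of the symbols. The other 6 (Ifit1, Mx1, Oas1g, Oas2, Ifi204 and Ifi44) were not analysed here. The rule names symbols and no measured value, but the set was drawn up with earlier results of these data known.

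The data are 12 RNA-seq libraries of germinal center B cells from spleens of the NZBWF1/J strain, a hybrid mouse in which lupus-like disease develops with age. Cells were sorted by flow cytometry into dark zone cells, which divide and mutate their antibody genes, and light zone cells, which are selected by antigen and T cell help. Each library was made from 1000 cells with SMART-Seq v4 and Nextera XT kits, in which information on the transcribed strand is lost. The 4 groups, of 3 libraries each, are the controls and the treated samples of either zone. All mice were of the same strain. Treated mice received CTLA4-Ig, a fusion protein that blocks the CD28 costimulatory ligands, at 200 ug a dose, and anti-CD40L, an antibody to the T cell ligand of CD40, at 250 ug a dose. They were given 6 doses of each within 2 weeks, starting at an age of 18 weeks. Control mice were untreated, and their age is not given in the labels. Nothing in the labels says whether libraries of a group came from separate mice or whether zones share mice, so a p-value here reflects only how much these libraries vary, which may be partly technical.

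Type I interferons signal through the receptor chains IFNAR1 and IFNAR2 and the kinases JAK1 and TYK2, which lead to the phosphorylation of STAT2. With IRF9 it is part of ISGF3, a transcription factor complex that binds the interferon-stimulated response element (ISRE) in the promoters of its target genes. Many of the targets are antiviral effectors, sensors of foreign nucleic acid, and signalling components that amplify or damp the response. A raised level of such transcripts in blood and lymphoid cells, called the interferon signature, is a known feature of systemic lupus erythematosus, and B cells both respond to interferon and can be driven by it towards autoantibody production.

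Since the ISRE is the promoter feature these genes are known to share, stretches that hold it are shown. Promoter sequences from RefSeq (build GRCm38.p6, from 250 bases before to 50 bases after the transcription start) matched 30 of the 36 listed members. The letters GAAANNGAAA, a core form of the ISRE, were searched on both strands. They occurred in 16 of the 30 members (53.3%) and in 3.44% of all 32851 promoters of that length. Counted by gene, the share was 3.99% of 27025 genes. The letters TTCNNNGAA of the gamma-activated site, an element of the interferon gamma response, occurred in 8 of the 30 (26.7%) and in 8.3% of all promoters, or 9.55% of genes. The 2 motifs were counted separately and may overlap. The following stretches, on the strand of each gene and 5′ to 3′, hold an ISRE match in capitals. Matches that begin with TTTC are the same letters read on the opposite strand. The first 4 belong to members of low level in these cells, and the last 3 to members of higher level.
Isg15, chr4:156200855-156200904, minus strand: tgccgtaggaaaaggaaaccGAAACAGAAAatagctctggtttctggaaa
Ifit3, chr19:34583387-34583436, plus strand: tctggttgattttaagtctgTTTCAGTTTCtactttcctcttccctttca
Oas1a, chr5:120907526-120907565, minus strand: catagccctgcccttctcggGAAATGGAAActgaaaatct
Rsad2, chr12:26456543-26456592, minus strand: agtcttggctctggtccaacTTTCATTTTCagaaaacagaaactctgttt
Gbp3, chr3:142559979-142560028, plus strand: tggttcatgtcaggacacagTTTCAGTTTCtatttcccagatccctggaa
Ifi203, chr1:173942498-173942547, minus strand: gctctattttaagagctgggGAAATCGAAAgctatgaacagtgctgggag
Trim30a, chr7:104465200-104465249, minus strand: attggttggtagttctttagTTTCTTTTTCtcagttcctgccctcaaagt
A match is a run of letters and does not show that a factor was bound there in these cells.

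Total counts ranged from 16032746 to 26837714 a library. For these totals 3 counts, the limit that a count of 0 allows, correspond to 0.0775 to 0.206 CPM (a level relative to the library's TMM-scaled total, TMM being a normalization that assumes most genes do not differ), which covers counting error only. Of the treated libraries, 3 stood apart from the other 9 libraries before any comparison, namely replicates 1 and 2 of the dark zone and replicate 2 of the light zone. They had counts in 12188 to 12195 symbols, against 11384 to 11960 in the others, TMM factors of 1.352 to 1.442 against 0.8156 to 0.9879, and scores of 98.77 to 113.4 against -61.57 to -6.877 on the first principal component. The 6 B cell markers summed to 5030 to 9080 CPM and the 8 germinal center B cell markers to 1540 to 4580 CPM over all libraries. Of the B cell markers, Pax5 was low in the other 9 libraries (0.175 to 4.69 CPM) and higher in the 3 (9.06 to 12.3 CPM), and Cd79a was lower in the 3. In controls the zone marker lists followed the labels (dark zone markers 1170 to 1460 CPM in dark zone and 543 to 840 in light zone libraries). Markers of other cells differed in the 3 libraries. Of all genes, 13.7% were higher there than in each of the other 9 libraries and 16.7% lower, so that 1 marker of 5 is close to these shares. Of 11 listed macrophage markers, 7 were higher there than in all other libraries and 1 (Marco) lower, and their sum was 86.2 to 227 CPM, against 15.2 to 54.3 in controls and 13 to 74.1 in the other 3 treated libraries. Of 5 plasmacytoid dendritic cell markers, 2 were higher without overlap and 1 (Ccr9) lower (sums of 63.2 to 110, 31.2 to 43.7 and 27.5 to 63.9 CPM in the same order). In the 3 libraries most of that sum was Pacsin1 (51.5 to 93.2 CPM). Of 9 T cell markers 5 were higher (140 to 308, 86.8 to 225 and 95.7 to 225 CPM), but most of that sum was Lck, which overlapped. Of 5 neutrophil markers 3 were higher (1.09 to 55.6, 0 to 8.01 and 0 to 0.16 CPM), with S100a8 and Camp at 0 in all of the other 9. In light zone treated replicate 2, however, S100a8 and Camp were at or under the limit of a count of 0 (0.0775 and 0.0258 CPM), and Ngp was at 0.233 CPM. The 5 erythroid markers summed to 61.4 to 261 CPM in the 3 libraries, 1.57 to 1390 in controls and 1.6 to 4.56 in the other 3 treated libraries (1 higher without overlap). The 2 natural killer cell markers summed to 2.03 to 10, 0.926 to 2.49 and 1.29 to 2.28 CPM (1 higher). Germinal center B cell markers summed to 1540 to 2050 CPM in the 3 libraries, 3280 to 4580 in controls and 3580 to 4140 in the other 3 (3 lower without overlap and 1, S1pr2, higher). The 5 plasma cell markers summed to 1310 to 2410, 7040 to 11500 and 6430 to 9110 CPM (1 lower). The counts and medians of each comparison over the members are therefore given with and without these 3 libraries, as are the differences of single members that the comparisons turn on. In bulk libraries such as these, fewer cells of a type and less RNA per cell cannot be told apart.

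The interferon-stimulated genes were not a uniformly active set in germinal center B cells. Per kilobase of exon, the highest mean levels in the 6 control libraries were those of Ifi35 (73.0 CPM per kb), Sp100 (34.8), Isg20 (27.2), Zbp1 (23.5), Samd9l (14.9), Trim30a (11.9) and Irf1 (10.1). Isg15, at a mean of 1.19 CPM per kb, was in the middle of that order, and other classical targets of interferon lay lower, Ifit3 at 0.35, Rsad2 at 0.258, Usp18 at 0.127 and Oas1a at 0.118. The means of Isg15 and Ifit3 rest on light zone control replicate 3, at 4.45 and 3.15 CPM. In the other controls Isg15 was at most 0.477 CPM and Ifit3 at most 0.274, so that the place of Isg15 among these targets is not fixed. Lowest of all were the RNA sensor genes Ddx58 (0.0542) and Ifih1 (0.0135) and the chaperone gene Rtp4 (0.016), each under 1 CPM in every control library. All 36 had counts in the 3 libraries that stood apart, and 29 to 36 had counts in each of the others. In none of the 35 pairs of neighbours in this order did the ranges over the 6 control libraries part, so only members far apart in it can be ranked. Trim25, for example, ran from 0.101 to 37.5 CPM among dark zone controls alone.

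**Figure D1:**
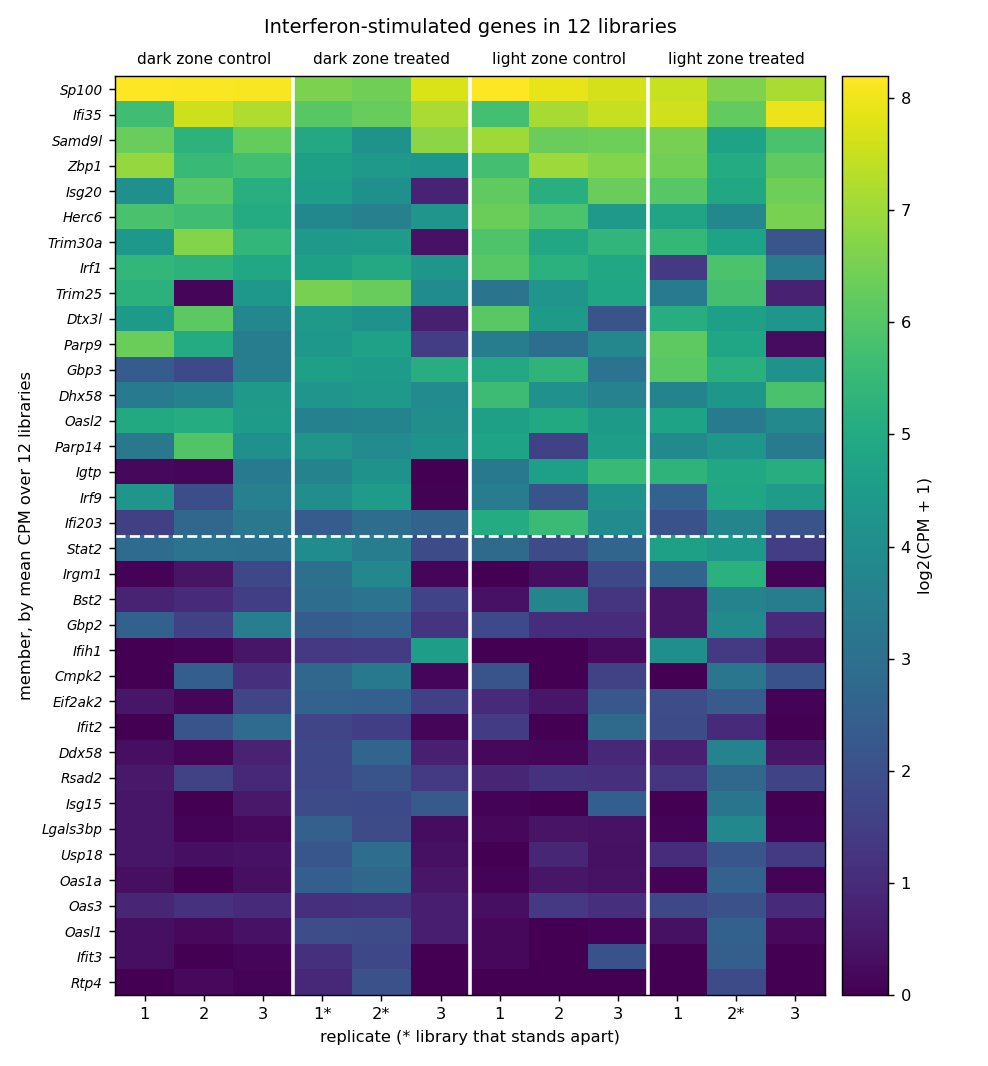
Heat map of the 36 listed interferon-stimulated genes (rows, ordered by mean CPM over 12 libraries) in the 12 libraries (columns, by group and replicate); colour gives log2(CPM + 1), white lines part the groups, the dashed line marks a mean of 10 CPM, and asterisks mark the 3 libraries that stood apart. Rows above the dashed line have counts in most libraries and vary from library to library, and many rows below it are close to 0 except in the columns with an asterisk.

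Split at a mean of 10 CPM over all 12 libraries, a division chosen after the values were seen, the set had 18 members on either side. Of members with a matched promoter, the ISRE letters were found in 12 of 16 under 10 CPM and in 4 of 14 at 10 CPM or more. As deviations from their group means over the 12 libraries, the low members varied together (median pairwise r = 0.51) and the higher members did not (median r = 0.01). This description includes the 3 libraries that stood apart and their greater number of detected genes. The same r was not computed for other genes of either level, so it is not shown to be particular to the members.

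The module mean, the mean log2 CPM over the 36 members, was 1.84 ± 0.44 in dark zone controls, 2.51 ± 1.18 in dark zone treated, 2.08 ± 0.40 in light zone controls and 2.48 ± 1.15 in light zone treated libraries (SD, n = 3 each). Single libraries stood at 1.56, 1.62 and 2.35 in dark zone controls, 3.1, 3.27 and 1.14 in dark zone treated, 1.96, 1.75 and 2.52 in light zone controls, and 2.21, 3.74 and 1.49 in light zone treated. Treated libraries were both the highest and the lowest of the 12. The 3 high values belong to the libraries that stood apart, and the other 3 treated libraries overlapped the controls or lay below them. Without the 3 libraries, the module mean was 1.14 in the single remaining dark zone treated library and 1.85 ± 0.51 (SD, n = 2) in light zone treated libraries, so that the averaged treatment difference turned from higher to lower.

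The low and the higher members did not move together. The mean over the 18 members under 10 CPM was -0.76 ± 0.66 in dark zone controls, 1.10 ± 1.39 in dark zone treated, -0.87 ± 0.87 in light zone controls and 0.35 ± 2.03 in light zone treated libraries (log2 CPM, SD, n = 3 each). For the 18 members of 10 CPM or more it was 4.45 ± 0.25, 3.91 ± 0.98, 5.02 ± 0.22 and 4.62 ± 0.37 in the same order. Their summed level, which the abundant members set, was 939 ± 98.1, 621 ± 32.7, 1000 ± 74.4 and 899 ± 128 CPM for all 36 together. The summed level was therefore lower in dark zone treated than in dark zone control libraries, where the mean of logs was higher.

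**Figure D2:**
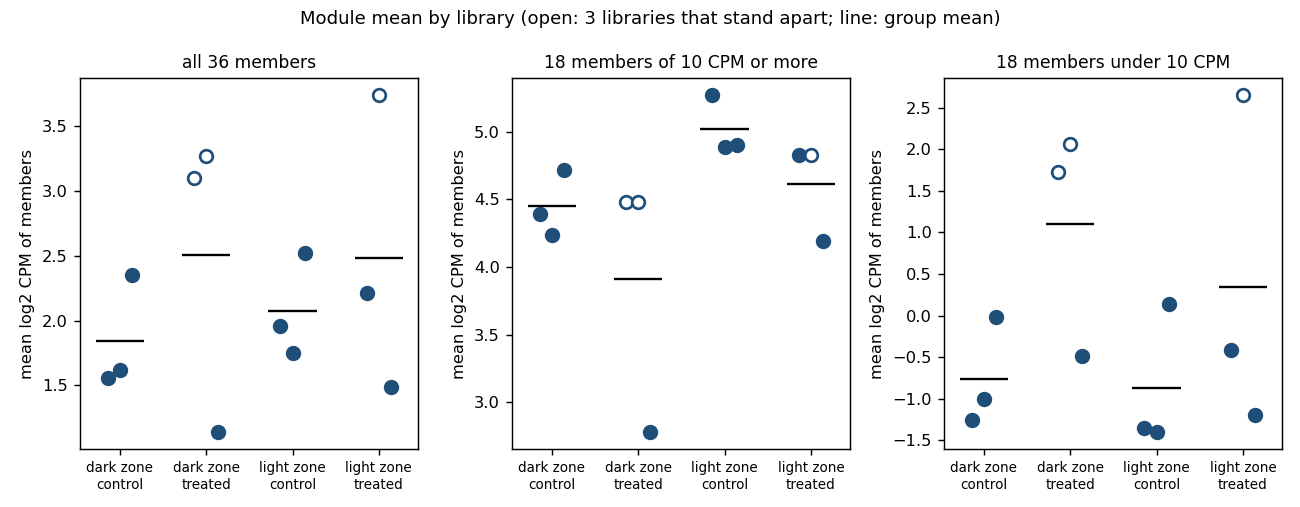
Mean log2 CPM (vertical axis) over all 36 members, the 18 members of 10 CPM or more and the 18 members under 10 CPM, by group; points are libraries, open points the 3 that stood apart, and lines group means. Open points are the highest of the 12 libraries for all members and for the low members, but not for the members of 10 CPM or more.

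The first question is what CTLA4-Ig with anti-CD40L did to these genes in each zone. In the dark zone 20 members were higher and 16 lower in treated libraries, with a median log2 difference of 0.39 (0.06 over all genes). In the light zone 24 were higher and 12 lower, with a median of 0.57 (0.1 over all genes). Averaged over zones, 24 were higher and 12 lower, with a median of 0.75 (0.11 over all genes). No member passed edgeR's quasi-likelihood test at an adjusted p under 0.05 in any of these comparisons, nor did any other gene (0% of 12081), and the smallest adjusted p among members was 0.528 in the dark zone, 0.674 in the light zone and 0.222 averaged over zones. At an unadjusted p under 0.05 stood 6 members in the dark zone (16.7% of 36, against 8.9% of all genes), 4 in the light zone (11.1% against 7.36%) and 12 averaged over zones (33.3% against 16.7%).

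Other tests made some calls. DESeq2 called no member in the dark zone, 1 in the light zone (Ifih1, adjusted p = 0.0443, among 1.85% of all genes called) and 6 averaged over zones (6.37% of genes): Ifih1, Ddx58, Usp18 and Lgals3bp higher, Sp100 and Zbp1 lower. Limma-voom with quality weights, which give less weight to libraries that fit poorly, called 10 members in the dark zone (25.4% of genes), 0 in the light zone and 1, Sp100, averaged over zones (8.19%). The dark zone calls were Gbp3, Lgals3bp, Oas1a, Oasl1 and Usp18, higher, and Herc6, Oasl2, Samd9l, Sp100 and Zbp1, lower. Those 10 of 36 members lay close to the share of all genes called in that comparison. Among the members called, Lgals3bp and Oas1a passed the filter on low counts only through the 3 libraries that stood apart.

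The median of the members turned with the 3 libraries. In the 9 other libraries, where Lgals3bp, Oas1a and Rtp4 fell below the filter, in the dark zone 11 of 33 members were higher and 22 lower, with a median of -0.76, and 13 were higher and 20 lower averaged over zones, with a median of -0.63 (-0.11 over all genes, and -0.60 with members at 0 in a whole group set at their limit). There 7 of 33 members had an unadjusted edgeR p under 0.05 (7.01% of all genes), namely Ifih1, higher, and Isg20, Trim30a, Irf9, Sp100, Irf1 and Dtx3l, lower. DESeq2 called 5 of them (3.47% of genes): Ifih1 higher, and Dtx3l, Irf9, Isg20 and Trim30a lower. In the light zone the median of the 9-library comparison was 0.18, with 17 members higher and 16 lower, and leaving out light zone treated replicate 2 alone brought the light zone median to -0.08. Within single zones of these libraries DESeq2 called Dtx3l, Irf9, Isg20 and Trim30a lower in the dark zone (1.87% of genes) and Ifi203 (adjusted p = 0.0055) and Irf1 (adjusted p = 0.00986) lower in the light zone (3.72% of genes), where edgeR called 0 genes. In these 9 libraries the dark zone treated group is a single library, whose spread is taken to be like that of the other groups. That library, replicate 3, held Isg20 at 0.721, Dtx3l at 0.641, Trim30a at 0.321 and Irf9 at 0.0401 CPM, the lowest value of each gene among all 12 libraries.

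Compared directly, 11 members were higher in the 3 libraries than in each of the other 9: Usp18, Trim25, Ddx58, Oas1a, Oasl1, Rsad2, Cmpk2, Eif2ak2, Irgm1, Rtp4 and Lgals3bp (30.6% of members, against 13.7% of all genes). Another 4 were lower there than in each of the others: Herc6, Oasl2, Samd9l and Sp100 (11.1%, against 16.7% of all genes). Of the 11 higher members, Oas1a, Rtp4 and Lgals3bp passed the filter on low counts only through the 3 libraries. Their place among the 11 thus follows in part from the filter. The shares of members and of all genes without such genes were not counted. With library totals in place of TMM, 12 members were higher and 0 lower, a scaling under which the averaged treatment difference of all genes has a median of 0.49 rather than 0.11 on the log2 scale. Of the other 3 treated libraries against the 6 controls, 0 members were higher without overlap (2.07% of all genes) and 1, Irf1, was lower (2.14% of all genes).

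All 18 low members had a higher mean log2 CPM in the 3 libraries than in controls, with a median difference of 3.34, where the 4814 genes of that level had a median of 1.14 and 72.7% were higher. The 18 include Oas1a, Rtp4 and Lgals3bp, which passed the filter on low counts only through the 3 libraries. In the other 3 treated libraries 9 of the 18 were higher and 9 lower (median -0.02, and -0.09 for all genes of that level). Of the 18 members of 10 CPM or more, 7 were higher and 11 lower in the 3 libraries (median -0.38, against 0.08 for 7267 genes). In the other 3 treated libraries 5 were higher and 13 lower (median -0.61, against -0.02). The part that the macrophage, plasmacytoid dendritic cell and T cell markers of the 3 libraries had in these differences was not tested. Nor was the part of the neutrophil markers of the dark zone libraries among them, or of the greater number of detected genes in the 3.

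**Figure D3:**
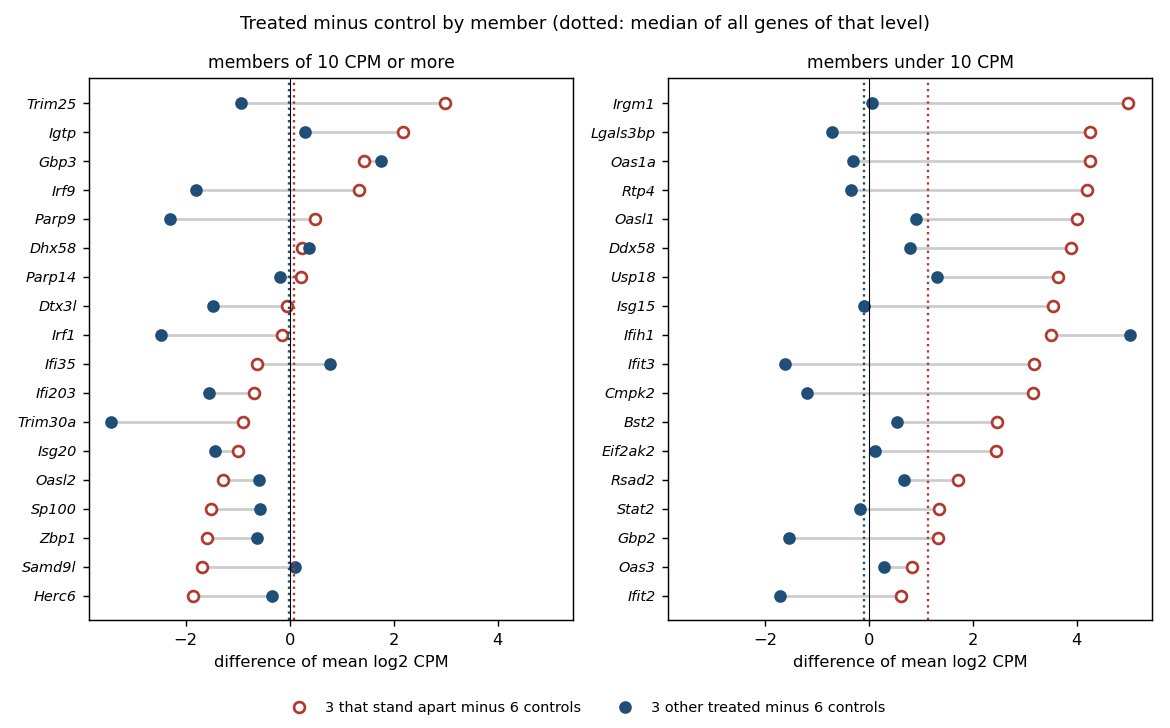
Difference of mean log2 CPM between treated and control libraries (horizontal axis) for each member, for the 3 libraries that stood apart (open) and the other 3 treated libraries (filled); dotted lines give the median of all genes of the same level. For members under 10 CPM all 18 open points lie above 0 and the filled points lie on both sides of it, and for members of 10 CPM or more 11 open and 13 filled points lie below 0.

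ISG15 and its conjugation machinery come first by role. Isg15 encodes a ubiquitin-like modifier, Usp18 the protease that removes it and also blocks the interferon receptor, Herc6 its main ligase in the mouse, and Trim25 a ligase that activates RIG-I. Isg15 (chr4:156199424-156200818 in mm10) stood at 0.411, 0 and 0.477 CPM in dark zone controls, 2.74, 2.62 and 3.97 in dark zone treated, 0.0654, 0 and 4.45 in light zone controls, and 0, 8.01 and 0 in light zone treated libraries. It was higher in all 3 dark zone treated libraries than in dark zone controls (log2 difference 3.38, SE 2.49, edgeR adjusted p = 0.598), and of the light zone libraries it was seen above the limit of a count of 0 in 1 control and 1 treated library only. Usp18 stood at 0.411, 0.253 and 0.318 CPM in dark zone controls, 3.55, 6.66 and 0.281 in dark zone treated, 0, 0.861 and 0.278 in light zone controls, and 1.05, 3.59 and 1.6 in light zone treated libraries. Its averaged log2 difference was 2.92 (SE 0.98, edgeR adjusted p = 0.232), and 0.80 (SE 1.10) without the 3 libraries. For Isg15 in the dark zone the difference without them was 3.74 (SE 2.76).

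Herc6 and Trim25, the more abundant pair of that group, moved apart. Herc6 stood at 55.9, 50.1 and 32.3 CPM in dark zone controls, 13.3, 10.8 and 18.2 in dark zone treated, 80.2, 57.5 and 20.1 in light zone controls, and 26.7, 13.2 and 92.0 in light zone treated libraries. Dark zone treated libraries all lay below dark zone controls (log2 difference -1.71, SE 0.74, edgeR adjusted p = 0.528), whereas light zone groups overlapped (-0.26, SE 0.72). With the 3 libraries left out the dark zone difference was -1.33 (SE 1.02). Trim25 stood at 37.5, 0.101 and 19.5 CPM in dark zone controls, 90.3, 77.8 and 14.7 in dark zone treated, 7.85, 18.4 and 27.6 in light zone controls, and 9.47, 53.4 and 0.671 in light zone treated libraries, high in the 3 libraries that stood apart and at no fixed level in the rest. Its averaged log2 difference was -1.08 (SE 1.56) without the 3.

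Among the transcription factors, Stat2 and Irf9 encode subunits of ISGF3, and Irf1 encodes a factor induced mainly by interferon gamma. Stat2 stood at 6.24, 7.68 and 7.32 CPM in dark zone controls, 14.9, 10 and 2.72 in dark zone treated, 6.15, 2.7 and 5.33 in light zone controls, and 24.1, 19.5 and 1.81 in light zone treated libraries. Irf9 stood at 18.4, 2.93 and 10.9 CPM in dark zone controls, 15.6, 22.1 and 0.0401 in dark zone treated, 10.2, 3.39 and 16.9 in light zone controls, and 4.97, 27.8 and 21.8 in light zone treated libraries. Both genes overlapped between treated and control libraries in each zone, with averaged log2 differences of 1.03 (SE 0.65) for Stat2 and 0.53 (SE 0.99) for Irf9. They were 0.06 (SE 0.83) and -3.71 (SE 1.18) without the 3 libraries. The latter rests on dark zone treated replicate 3. Irf1 stood at 41.8, 38.4 and 28.4 CPM in dark zone controls, 24.2, 30.1 and 19.2 in dark zone treated, 65.4, 36.9 and 29.4 in light zone controls, and 1.64, 57.1 and 10 in light zone treated libraries. The 3 treated libraries that did not stand apart had the lowest Irf1 values of all 12, and the averaged log2 difference was -0.75 (SE 0.66) with all libraries and -1.90 (SE 0.72, edgeR adjusted p = 0.703) without the 3. Some 123 exon bases of Irf9 overlap Rnf31 and 135 of Irf1 overlap Gm17334, so reads there can come from either gene.

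The nucleic acid sensors showed opposite directions. Ifih1 encodes MDA5 and Ddx58 RIG-I, both sensors of viral RNA, Dhx58 their regulator LGP2, and Zbp1 a sensor of Z-form nucleic acid that can trigger cell death. Ifih1 (chr2:62595798-62646255) stood at 0, 0.0506 and 0.424 CPM in dark zone controls, 1.58, 1.77 and 23 in dark zone treated, 0, 0 and 0.185 in light zone controls, and 16, 1.63 and 0.258 in light zone treated libraries. It was the member with the largest averaged log2 difference (6.05, SE 1.53, edgeR adjusted p = 0.222) and stayed high without the 3 libraries (6.98, SE 1.72, edgeR adjusted p = 0.608 and DESeq2 adjusted p = 0.0103). Its highest values were in treated libraries that did not stand apart, dark zone replicate 3 and light zone replicate 1, while light zone treated replicate 3 was within the range of controls. Because controls were near 0, the size of this difference depends on few counts, and without light zone treated replicate 1 it was 4.73.

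Zbp1 (chr2:173206612-173218923) stood at 119, 45.3 and 51.0 CPM in dark zone controls, 24.3, 20.3 and 18.6 in dark zone treated, 52.6, 126 and 102 in light zone controls, and 85.7, 32.2 and 73.0 in light zone treated libraries. All dark zone treated libraries lay below all controls of either zone, including the one that did not stand apart, with a dark zone log2 difference of -1.77 (SE 0.54, edgeR adjusted p = 0.528) and an averaged difference of -1.16 (SE 0.37, edgeR adjusted p = 0.232). Without the 3 libraries the averaged difference was -1.08 (SE 0.48). Dhx58 stood at 9.39, 11.2 and 20 CPM in dark zone controls, 18.5, 20.1 and 14.6 in dark zone treated, 48.3, 16.7 and 11.3 in light zone controls, and 11.9, 19.4 and 55.8 in light zone treated libraries, with overlap in each comparison. Ddx58 was between 0.101 and 0.926 CPM in the 9 other libraries and between 2.42 and 11.8 in the 3 that stood apart.

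The 2-5A synthetases, here Oas1a and Oas3, make the second messenger that activates RNase L, and Oasl1 and Oasl2 encode related proteins with ubiquitin-like domains. Oas1a stood at 0.274, 0 and 0.265 CPM in dark zone controls, 4.42, 5.62 and 0.401 in dark zone treated, 0.0654, 0.402 and 0.324 in light zone controls, and 0.0585, 5.01 and 0.0516 in light zone treated libraries. Oasl1 stood at 0.274, 0.152 and 0.318 CPM in dark zone controls, 2.87, 2.72 and 0.601 in dark zone treated, 0.131, 0 and 0.0463 in light zone controls, and 0.292, 4.83 and 0.155 in light zone treated libraries. For both genes the 3 libraries that stood apart lay above all others, and for Oasl1 all treated libraries also lay above the controls of their own zone (averaged log2 difference 3.92, SE 1.07, edgeR adjusted p = 0.222). The Oasl1 difference without the 3 libraries was 1.56 (SE 0.92, edgeR adjusted p = 0.746). Oasl2, the abundant gene of the family, went the other way, at 30.3, 32.8 and 21.4 CPM in dark zone controls, 11.2, 11.9 and 15.5 in dark zone treated, 24.5, 30.6 and 21.2 in light zone controls, and 25.8, 9.22 and 13.5 in light zone treated libraries. Its averaged log2 difference was -0.89 (SE 0.39, edgeR adjusted p = 0.284), and 5 of 6 treated libraries were below every control. It was -0.60 (SE 0.45) when the 3 libraries were left out. Oas1a has near-identical paralogs, and reads shared between them may be counted for either.

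The antiviral effectors split by level in the same way, with Ifit2 as an exception. Ifit3, a partner of IFIT1 in recognising viral RNA, stood at 0.274, 0 and 0.106 CPM in dark zone controls, 1.19, 2.4 and 0 in dark zone treated, 0.131, 0 and 3.15 in light zone controls, and 0, 4.57 and 0 in light zone treated libraries. It was at 0 in all of the other 3 treated libraries, and light zone control replicate 3, which also held the highest control value of Isg15, was within the range of the 3 that stood apart. Isg20, a 3′ to 5′ exonuclease, stood at 16.3, 66.0 and 34.8 CPM in dark zone controls, 22.7, 16.5 and 0.721 in dark zone treated, 71.9, 34.7 and 79.8 in light zone controls, and 65.3, 29.1 and 83.3 in light zone treated libraries. In treated libraries it was higher in the light zone than in the dark zone without overlap (log2 difference 2.15, SE 0.99, edgeR adjusted p = 1). Samd9l, a translation inhibitor, stood at 78.7, 38.5 and 75.6 CPM in dark zone controls, 30, 17.0 and 107 in dark zone treated, 130, 79.7 and 82.7 in light zone controls, and 90.0, 26 and 56.3 in light zone treated libraries, with its 3 lowest values in the libraries that stood apart. Its averaged log2 difference without them was 0.17 (SE 0.36). Rsad2 (viperin), Cmpk2 and Eif2ak2 (PKR) were between 0 and 4.45 CPM in the 9 other libraries and between 2.32 and 8.87 in the 3, each without overlap, and Bst2 (tetherin) and Ifit2 overlapped. Ifit2, a low member, had treatment log2 differences of -1.18 (SE 2.08) in the dark zone and -1.14 (SE 2.08) in the light zone. Its mean log2 CPM was nonetheless higher by 0.61 in the 3 libraries than in controls.

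**Figure D4:**
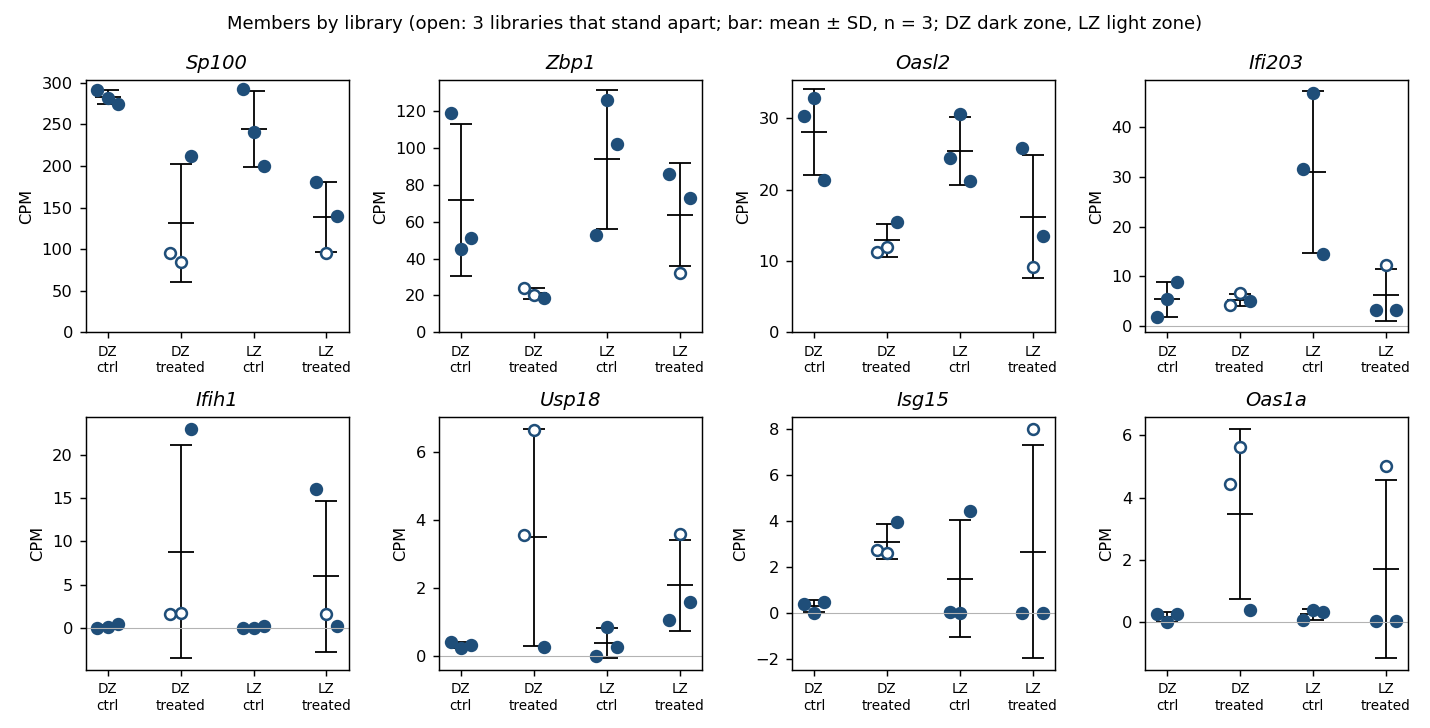
CPM (vertical axis, a scale of its own in each panel) of 8 members by group; points are libraries, open points the 3 that stood apart, and bars the mean ± SD (n = 3). Sp100, Zbp1 and Oasl2 are lower in dark zone treated than in dark zone control libraries, Ifi203 is highest in light zone controls, Ifih1 is highest in 2 filled treated points, and Usp18 and Oas1a are highest in the open points.

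Parp9 and Dtx3l encode partners that form a ubiquitin ligase complex enhancing interferon signalling, and Parp14 a related ADP-ribosyltransferase. Parp9 stood at 80.7, 31.8 and 10.2 CPM in dark zone controls, 19.6, 24.6 and 1.8 in dark zone treated, 9.81, 6.83 and 13.0 in light zone controls, and 71.2, 27.3 and 0.206 in light zone treated libraries. Dtx3l stood at 21.1, 68.7 and 13.3 CPM in dark zone controls, 20, 17.6 and 0.641 in dark zone treated, 68.1, 21.1 and 3.38 in light zone controls, and 33.3, 24.5 and 18.9 in light zone treated libraries. Libraries of the same group differed widely, no group stood apart from the rest, and averaged log2 differences were 0.16 (SE 0.99) and -0.85 (SE 0.85). These neighbouring genes share 458 exon bases on opposite strands, which these unstranded libraries cannot assign.

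The interferon-inducible GTPases act on membranes around intracellular pathogens. Gbp3 stood at 4.25, 2.48 and 9.81 CPM in dark zone controls, 24.1, 22.3 and 33.3 in dark zone treated, 30.1, 39.2 and 7.74 in light zone controls, and 67.4, 35.4 and 17.4 in light zone treated libraries. All dark zone treated libraries lay above dark zone controls, by a log2 difference of 2.27 (SE 0.79, edgeR adjusted p = 0.528), and the highest was the library that did not stand apart. Averaged over zones the difference was 1.45 (SE 0.55, edgeR adjusted p = 0.245) and 1.68 (SE 0.74) without the 3 libraries. Igtp stood at 0.137, 0.101 and 9.7 CPM in dark zone controls, 11.6, 17.1 and 0 in dark zone treated, 8.96, 23.7 and 44.7 in light zone controls, and 39.4, 28.9 and 33.1 in light zone treated libraries, so that it was higher in light than in dark zone treated libraries without overlap (log2 difference 1.82, SE 1.84, edgeR adjusted p = 1). Gbp2 ran from 0.409 to 13.7 CPM with no group apart, and Irgm1 was between 0 and 5.32 CPM in the 9 other libraries and between 7.22 and 36.5 in the 3.

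Ifi203, of the PYHIN family of DNA-binding proteins, was the member with the clearest zone difference in controls. Ifi203 (chr1:173920407-173942672) stood at 1.92, 5.46 and 8.8 CPM in dark zone controls, 4.19, 6.6 and 5.05 in dark zone treated, 31.6, 46.9 and 14.5 in light zone controls, and 3.22, 12.3 and 3.35 in light zone treated libraries. Light zone controls lay above every other library of the study (light against dark zone in controls 2.52, SE 0.85, on the log2 scale, edgeR adjusted p = 1, DESeq2 adjusted p = 0.0658). That zone difference was 2.55 (SE 0.73) in DESeq2 without the 3 libraries and passed it (adjusted p = 0.0482). Light zone treated libraries lay below them (log2 difference -2.29, SE 0.84, edgeR adjusted p = 0.674), while dark zone groups did not differ beyond their spread (-0.03). The light zone difference was -3.22 (SE 0.96, edgeR adjusted p = 0.655) without the 3 libraries. The difference between the treatment effects was -2.26 (SE 1.15, unadjusted p = 0.076, adjusted p = 1 in edgeR), and -3.14 (SE 1.31, unadjusted p = 0.0476, adjusted p = 1 in edgeR) without the 3 libraries. The gene family is closely related in sequence and 37 exon bases of Ifi203 overlap Mndal, which makes its counts uncertain.

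Of the remaining members, Sp100 and Ifi35 were the most abundant of the whole set. Sp100 (chr1:85649988-85709998), a component of nuclear PML bodies, stood at 291, 282 and 275 CPM in dark zone controls, 95.4, 84.1 and 212 in dark zone treated, 292, 241 and 200 in light zone controls, and 181, 95.8 and 140 in light zone treated libraries. It was lower in treated libraries in both zones without overlap, by log2 differences of -1.12 (SE 0.40, edgeR adjusted p = 0.528) in the dark zone and -0.97 (SE 0.28, edgeR adjusted p = 0.229) averaged over zones. The averaged difference passed DESeq2 (adjusted p = 0.0317) and limma-voom (0.0195), and without the 3 libraries it was -0.50 (SE 0.19, edgeR adjusted p = 0.703). Ifi35, which encodes a binding partner of NMI, stood at 50.7, 189 and 149 CPM in dark zone controls, 65.4, 77.2 and 140 in dark zone treated, 52.8, 138 and 175 in light zone controls, and 195, 73.9 and 247 in light zone treated libraries, with an averaged log2 difference of 0.02 (SE 0.44). Trim30a was between 19.9 and 102 CPM in controls, between 20.4 and 26.1 in the 3 libraries, and at 0.321, 42.5 and 3.46 in the other treated ones. Lgals3bp and Rtp4 were at 0.411 CPM or less in the 9 other libraries and at 0.903 to 13.1 in the 3.

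Members whose groups did not overlap were also counted in each zone. In the dark zone 6 members were higher in treated libraries without overlap (16.7%, against 12.5% of all genes), namely Isg15, Ifih1, Oas1a, Oasl1, Bst2 and Gbp3, and 4 were lower (11.1%, against 11.2%), namely Herc6, Zbp1, Oasl2 and Sp100. Of the higher ones, Oas1a passed the filter on low counts only through the 3 libraries that stood apart. In the light zone 4 were higher (11.1%, against 5.81%), namely Usp18, Ifih1, Oasl1 and Rsad2, and 2 were lower (5.56%, against 5.49%), Ifi203 and Sp100. Ifih1 and Oasl1 were thus higher, and Sp100 lower, without overlap in both zones. In the light zone the lowest treated value of Ifih1 was 0.258 CPM, against a highest control value of 0.185. For Oasl1 these were 0.155 and 0.131 CPM, about the limit of a count of 0. The share of all genes without overlap in both zones was not counted, and the zones may share mice.

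The second question is whether zones differed. In controls 17 members were higher in the light zone and 19 lower, with a median log2 difference of -0.05 (0 over all genes), and in 12 libraries no member passed edgeR (0% of genes), DESeq2 or limma-voom. Unadjusted edgeR p-values were under 0.05 for 2 members, Ifi203 and Gbp3, both higher in the light zone (5.56%, against 4.93% of all genes). Samd9l and Ifi203 were higher without overlap (5.56%, against 4.47%) and Stat2 and Oasl1 lower (5.56%, against 5.58%). Gbp3 had a log2 difference of 2.22 (SE 0.79, edgeR adjusted p = 1) with light zone control replicate 3 inside the dark zone range. With the 3 treated libraries left out of the fit, 15 of 33 members were higher and 18 lower, with a median of -0.04 (0.02 over all genes). DESeq2 then called 1 of them, Ifi203, higher in the light zone (0.999% of genes).

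In treated libraries 24 members were higher in the light zone and 12 lower, with a median of 0.40 (0.05 over all genes). In 12 libraries none passed edgeR (0% of genes), DESeq2 or limma-voom, and 2, Zbp1 and Herc6, had an unadjusted edgeR p under 0.05 (5.56%, against 2.06% of all genes). Zbp1, Isg20 and Igtp were higher without overlap (8.33%, against 2.24%) and 0 members were lower (3.57% of all genes). The Zbp1 difference was 1.59 on the log2 scale (SE 0.53, edgeR adjusted p = 1) and that of Herc6 1.64 (SE 0.74), which fell to 0.50 without light zone treated replicate 3. The median was -0.10 without light zone treated replicate 2 and -0.55 in limma-voom, so its direction rests on the weight of single libraries. Without the 3 libraries, with 1 dark zone and 2 light zone treated libraries left, 20 of 33 members were higher and 12 lower, with a median of 0.67 (0.09 over all genes). There Dtx3l, Igtp, Irf9, Isg20, Trim30a and Zbp1 were higher at an unadjusted edgeR p under 0.05 (5.97% of all genes), and 0 genes passed the adjusted threshold. DESeq2 called the first 5 (3.27% of genes; adjusted p = 0.0271, 0.00395, 0.00378, 1.5e-09 and 0.00225 in that order). All 5 were at their lowest of the 12 libraries, Igtp at 0, in dark zone treated replicate 3, the single library on which these calls rest.

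The treatment effects of the 2 zones were also compared with each other. Here 22 members had a higher effect in the light zone and 14 a lower one, with a median of 0.45 (0.15 over all genes, and 0.40 with Rtp4, which was at 0 in all light zone controls, set at its limit). In 12 libraries no member passed edgeR (0% of genes), DESeq2 or limma-voom, and 0 members had an unadjusted edgeR p under 0.05 (2.28% of all genes). The median was -0.42 without light zone treated replicate 2. Without the 3 libraries 21 of 33 members had a higher effect in the light zone and 12 a lower one, with a median of 0.58 (0.1 over all genes). Ifi203, lower, and Irf9, Isg20 and Trim30a, higher, then had an unadjusted edgeR p under 0.05 (4.63% of all genes) with 0 genes past the adjusted threshold. DESeq2 called Irf9 (adjusted p = 0.0185), Isg20 (adjusted p = 2.06e-05) and Trim30a (adjusted p = 0.017), among 2.1% of genes. The single dark zone treated library was again replicate 3.

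Other genes of the pathway were followed as fixed lists. Their counts and medians were taken over all 12 libraries only, so that the 3 libraries that stood apart weigh in them. None of the 10 interferon genes looked for was analysed here, so the source of interferon was not measured. Of 16 receptor and signalling genes 12 were higher and 4 lower in treated libraries averaged over zones (median 0.38, against 0.11 over all genes), with 3 higher at an unadjusted edgeR p under 0.05, a level that 16.7% of all genes reached in that comparison, and 0 past the adjusted threshold. Ifnar1 ran from 0.801 to 24.3 CPM, Ifnar2 from 0.404 to 18.2 and Ifngr1 from 0.671 to 75.5 over the 12 libraries, with no group apart. Irf5 and Irf8, factors of myeloid and B cells, were at 104 to 190 and 540 to 705 CPM in the 3 libraries that stood apart, against 0.303 to 81 and 104 to 207 CPM in the other 9. Of 13 listed sensors and adaptors upstream of interferon 12 were higher (median 1.69, 5 at an unadjusted p under 0.05, against 16.7% of all genes, and 0 passing), among them Tlr9, the endosomal sensor of DNA, at 6.13, 8.84 and 2.76 CPM in the 3 libraries, 20 in dark zone treated replicate 3 and at most 0.548 in the other 8, and the kinase gene Irak1, at 30.1 to 48.7 CPM in the 3 libraries and 4.25 to 16.3 in the others. Of 7 feedback inhibitors 5 were higher (median 1.86, 3 higher and 1 lower at an unadjusted p under 0.05, again against 16.7% of all genes), with the phosphatase gene Ptpn1 at 322 to 387 CPM in the 3 libraries and 6.07 to 143 in the others, and Ptpn2 at 40.9 to 47.5 CPM against 69.4 to 333.

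Irf7, which encodes a factor that amplifies the type I interferon response, was higher in light zone than in dark zone controls. Irf7 stood at 5.48, 6.67 and 8.64 CPM in dark zone controls, 17.9, 17.9 and 14.3 in dark zone treated, 19.2, 27.1 and 17.9 in light zone controls, and 5.44, 18.4 and 7.17 in light zone treated libraries. Light zone controls all lay above dark zone controls, by a log2 difference of 1.62 (SE 0.63, edgeR adjusted p = 1). The treatment difference was 1.27 (SE 0.63) in the dark zone and -1.05 (SE 0.63) in the light zone, and these effects differed by -2.31 (SE 0.89, unadjusted p = 0.0244, adjusted p = 1 in edgeR), and by -2.81 (SE 0.93) without the 3 libraries.

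A further list of 74 interferon-responsive genes, 66 of them listed and 65 tested, had no common direction either: 31 were higher and 34 lower averaged over zones (median -0.12, 9 higher and 7 lower at an unadjusted edgeR p under 0.05, against 16.7% of all genes, and 0 passing). Ifi27 and Ifi27l2a, which encode small membrane proteins of the ISG12 family, and Xaf1, a pro-apoptotic gene, were lower in treated libraries in both zones. Ifi27l2a stood at 613, 726 and 457 CPM in dark zone controls, 128, 98.3 and 239 in dark zone treated, 535, 372 and 444 in light zone controls, and 251, 82.9 and 159 in light zone treated libraries, so that all 6 treated libraries lay below all 6 controls. Ifi27 stood at 89.0, 203 and 79.7 CPM in dark zone controls, 33.4, 38.7 and 26.5 in dark zone treated, 141, 87.4 and 120 in light zone controls, and 58.0, 33.0 and 47.3 in light zone treated libraries, again with no overlap. The share of all genes with no overlap between the 6 treated libraries and the 6 controls was not counted. Averaged log2 differences were -1.70 (SE 0.33) for Ifi27l2a, -1.62 (SE 0.31) for Ifi27 and -1.52 (SE 0.37) for Xaf1, each with an edgeR adjusted p of 0.222. They passed DESeq2 (adjusted p = 0.00028, 0.000119 and 0.000914, among 6.37% of all genes called) and limma-voom with quality weights (0.0195, 0.0221 and 0.0204, among 8.19%). Without the 3 libraries the differences were -1.22 (SE 0.26), -1.67 (SE 0.43) and -1.35 (SE 0.40), with edgeR adjusted p-values of 0.557, 0.663 and 0.693 and DESeq2 adjusted p-values of 0.000686, 0.00235 and 0.00121. Ifi202b, a PYHIN gene whose level is known to differ between lupus-prone and other strains, was at 3.13 CPM in light zone treated replicate 2 and at most 0.442 in the other 11 libraries.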

How the data were processed

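The authors deposited one table per library with expected counts per gene symbol; per the submitters' processing notes BWA and the mm10 build were used, the counting program, annotation and gene filter being not given in the sources used here. Values were whole numbers or lay midway between them (724 to 1301 symbols a library, 1 to 4 of them members); these were rounded up and blank cells read as 0. Why such values occur is not known, so a value of a gene with several transcripts may not be a count of its reads.

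All genes entered edgeR 4.0.16 under R 4.3.3 (robust quasi-likelihood, TMM, filterByExpr with minimum count 10 and minimum total 15), in a single fit of 12 libraries with a term per group, tested on simulated data. Two-sided p-values were adjusted over 12081 genes (Benjamini-Hochberg), with a threshold of 0.05. SE is the absolute log2 difference divided by the square root of F. Log2 CPM used a prior count of 2. DESeq2 1.42.0 and limma 3.58.1 (voom with quality weights) were alternatives, with other scalings, no filter, and libraries left out. No 2 libraries held identical values (highest correlation 0.973). Exon lengths and overlaps come from GENCODE M21.

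Members and lists were chosen with earlier results of these data known. Values by library are given for the 2 members of each role with the highest mean CPM, for Isg15, Ifit3, Stat2, Irf9 and Usp18, and for the 3 members with the smallest unadjusted p in each of 6 comparisons, with fixed other genes, 1 of which is not reported here, and the 2 of each fixed list with the smallest p. The 10 CPM division, the counts without overlap for the 3 libraries and DESeq2 on 9 libraries were added after seeing the data.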

Additional observations from a re-analysis of the deposited data

How the results depend on the processing

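Depth limits the members under 10 CPM, many of whose control libraries lie near 3 counts. DESeq2 called 72, 216, 113, 1, 16 and 745 genes for treatment in the dark zone, treatment in the light zone, zone in controls, zone in treated, the difference between effects and the averaged treatment, and 217, 432, 116, 365, 230 and 395 when the 3 libraries that stood apart were left out. Limma-voom called 3073 in the dark zone and 990 averaged over zones. It gave member medians of -0.55 for zone in treated libraries and -0.76 for the difference between effects, and turned the Parp9 difference between effects from 3.15 to -0.78. The dark zone and averaged member medians were -0.76 and -0.63 without the 3 libraries, -0.75 and -0.55 with a term for them, and -0.79 and -0.63 in DESeq2 without them. The averaged module difference was -0.38 with summed CPM and -0.46 without the 3 libraries. The cause of these shifts was not tested. With each library left out in turn, edgeR still called 0 genes in all 6 comparisons, and member medians ran from 0.24 to 0.81 (dark zone treatment), -0.08 to 1.12 (light zone treatment), -0.19 to 0.19 (zone in controls), -0.10 to 0.75 (zone in treated), -0.42 to 0.92 (difference between effects) and 0.28 to 1.01 (averaged); the module difference ran from 0.22 to 0.87 for treatment and from 0.01 to 0.48 for zone in controls. Of 6 pairs of one replicate number, 3 had correlated deviations over 0.1, from -0.307 to 0.539, and 2 of 6 dark zone libraries correlated best with their own number, which does not show whether the numbers mark shared mice; with the replicate number as a block the averaged member median was 0.51 and 0 genes were called. Of the group results recomputed, 234 stayed near the main value and 24 moved. For a median or module mean, near meant within 0.88, the pooled SD of the module mean. For a count of genes it meant within a set ratio. Direction was not part of this rule, and some medians that stayed near changed sign, as the ranges above show. For single members 319 results kept their direction and side of the threshold, 11 passed the threshold and 1 reversed.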
